A study of Rattus norvegicus with 6 samples.

Results

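The PMP22 and EMP family was represented by all of its 4 genes, Pmp22, Emp1, Emp2 and Emp3, which were taken by symbol from the 17327 genes counted in each sample. All 4 were among the 9740 genes that had enough counts to be tested. RNA sequencing was carried out on primary Schwann cells of adult Wistar rats, grown from female sciatic nerves, in culture and so without axons. The mock group (n = 3) received ligand buffer, PBS with bovine serum albumin, and the NRG1 group (n = 3) received 10 nM recombinant soluble NRG1β1, the epidermal growth factor-like ligand of the ErbB receptors, both for 6 h. Each of the 3 independent preparations of cells, here called cultures 1, 2 and 3, gave 1 mock and 1 NRG1 sample. In both groups the cells had been grown in 10% foetal bovine serum with glial growth factor, itself a neuregulin, and then starved for 18 h. The medium of starvation and stimulation held 2% of this serum and 10 μM forskolin, which raises cAMP and drives myelin gene expression in cultured Schwann cells.

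PMP22 is a small glycoprotein with 4 membrane-spanning segments and a main component of compact peripheral myelin, also known as growth arrest-specific protein GAS3. Duplication of its gene causes a common inherited demyelinating neuropathy, and loss of a copy causes a neuropathy with sensitivity to pressure, so that the amount of PMP22 matters for the nerve. The epithelial membrane proteins EMP1, EMP2 and EMP3 have the same membrane topology, are found in many tissues besides nerve and belong, with PMP22 and the claudins, to a superfamily of cell surface and junction proteins. Pmp22 is transcribed from alternative promoters, of which a gene-level count does not distinguish the products.

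In response to NRG1 the family was split. Pmp22 and Emp2 fell, by 2.97-fold and 3.65-fold, Emp3 rose by less than 2-fold, and the change of Emp1 did not pass the test. Genes counted as regulated had an adjusted p no higher than 0.01 together with an absolute log2 fold change over 1. With that rule 2 of the 4 members were down-regulated, where 1.91% of the 9740 genes tested were, and 0 were up-regulated, where 1.56% of all genes tested were. By the adjusted p alone, without a minimum fold change, 2 members were lower, against 5.51% of all genes, and 1 was higher, against 6.31% of all genes.

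The 2 genes that fell both lie on rat chromosome 10, and the 250 bases in front of the annotated start of each are shown because these genes moved together. The sequences are those of RefSeq for the GRCr8 assembly, in which the Pmp22 stretch is chr10:48294682-48294931 and the Emp2 stretch chr10:5866619-5866868, both on the plus strand. The counts themselves were made on another assembly, rn5. Capitals mark exact matches, on either strand, to short motifs of transcription factors and of a basal promoter element.
Pmp22: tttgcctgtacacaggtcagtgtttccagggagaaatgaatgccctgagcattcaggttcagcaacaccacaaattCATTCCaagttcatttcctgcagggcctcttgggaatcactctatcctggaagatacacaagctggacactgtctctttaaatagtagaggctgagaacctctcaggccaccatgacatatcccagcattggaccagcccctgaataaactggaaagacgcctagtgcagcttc
Emp2: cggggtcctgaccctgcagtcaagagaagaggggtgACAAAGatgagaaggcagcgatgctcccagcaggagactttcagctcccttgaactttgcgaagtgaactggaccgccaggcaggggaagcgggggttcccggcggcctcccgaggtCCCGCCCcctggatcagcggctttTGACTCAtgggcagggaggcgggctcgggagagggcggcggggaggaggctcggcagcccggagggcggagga

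The search covered 7 motifs, namely TEAD (GGAATG), SOX (ACAAAG or ACAATG), EGR (GCGTGGGCG or GCGGGGGCG), CRE (TGACGTCA), AP-1 (TGAGTCA), FoxO (GTAAACA) and the GC box (GGGCGGG). In Pmp22 the only match was to TEAD, beginning 174 bases before the start, a motif found in 11.8% of the 27457 rat promoters searched over the same length. In Emp2 a SOX motif began 214 bases, a GC box 97 bases and an AP-1 motif 73 bases before the start, and these occur in 24.8%, 22.5% and 3.98% of all promoters. EGR, CRE and FoxO, present in 2.94%, 1.70% and 3.25% of all promoters, matched neither stretch. Of the 7 motifs 0 were held by both stretches. The stretches also differed in base composition, with 48.0% G and C in Pmp22 and 67.2% in Emp2. In the members that did not fall, the same search matched TEAD and AP-1 in Emp1, beginning 242 and 212 bases before the start. In Emp3 it matched a GC box, beginning 21 bases before the start. TEAD, AP-1 and the GC box were thus not particular to the genes that fell. A match of letters is not evidence of binding, and the windows hold no distant regulatory elements.

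Before the values of the members, the libraries need a description. Counts on genes ranged from 6821590 to 15475018 per library, so that 3 counts, taken as the lowest level that could be seen, correspond to 0.19 to 0.44 CPM, that is counts per 1000000 counts on genes. The Schwann cell markers Sox10, Erbb3, Ngfr and S100b were present in every library, whereas Gap43 was counted at or below 0.19 CPM on average in both groups. The summed level of the 7 Schwann cell markers was lower in culture 1, with 3024 CPM in mock and 2744 CPM in NRG1, than in cultures 2 and 3, with 5352 to 7061 CPM. Of the 6 Schwann cell markers tested, S100b (-0.58) and Cdh19 (-1.10) were lower after NRG1 with an adjusted p under 0.01, and the other 4 did not pass. The 7 fibroblast markers summed to 51949 CPM in mock and 55825 CPM in NRG1 of culture 1, against 13773 to 22124 CPM in the other cultures. In cultures 2 and 3 most of this sum was Col1a1, at 13491 to 21294 CPM, while Pdgfra had at most 1.62 CPM there. Col1a2 had at most 0.23 CPM in any library. Of the same 7 markers, Dcn and Thy1 had 0 counts in every library of cultures 2 and 3. In culture 1 they had 594 and 1233 CPM in the mock sample and 413 and 1106 CPM in the NRG1 sample. Acta2, a gene of pericytes and smooth muscle, was likewise at 1763 and 1784 CPM in culture 1 and at most 4.54 CPM elsewhere, and the 5 pericyte and smooth muscle markers summed to 3034 and 3069 CPM there against 231 to 410 CPM. Of the 3 fibroblast markers tested, Col1a1, Col3a1 and Pdgfra, 0 passed between mock and NRG1 at an adjusted p of 0.01. Col3a1 was closest, with a log2 fold change of -0.98 (adjusted p = 0.012), and its log2 ratios were 0.05 in culture 1 but -1.59 and -1.38 in cultures 2 and 3, where it went from 830 and 451 CPM in mock to 280 and 170 CPM in NRG1, so that in these cultures it was lower together with Pmp22 and Emp2. Markers of macrophages and of endothelium summed to at most 15.1 CPM in every library, and Ptprc, Pecam1 and Cdh5 had 0 counts throughout. The part of other cell types in the level of the members was not tested, and in bulk RNA fewer Schwann cells and less RNA per cell cannot be told apart. Values of the 4 members without culture 1 are therefore given beside their results, and those of the related genes where a call changed. A fit without 1 culture rests on fewer pairs, and the SE (standard error) of each member was larger without culture 1. An adjusted p below that of all 3 cultures is therefore not to be read as stronger evidence.

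Pmp22 had 970, 2515 and 1436 CPM in mock cultures 1, 2 and 3. After NRG1 it had 312, 914 and 466 CPM in the same cultures. The highest NRG1 sample lay just under the lowest mock sample, so that the groups did not overlap, although culture 2 was above culture 1 by 2.59-fold in mock and by 2.93-fold in NRG1. The mean fell from 1640 ± 793 CPM to 564 ± 313 CPM (SD, n = 3 each). In the paired edgeR quasi-likelihood fit the log2 fold change was -1.57 (standard error, SE, 0.13, 95% interval -1.85 to -1.29, adjusted p = 3.9e-06), or 2.97-fold lower. It was nearly the same in each culture, with log2 ratios of -1.63, -1.48 and -1.60, and only 50 of the genes tested had a more negative fold change. Without culture 1 it was -1.54 (SE 0.19, adjusted p = 2.1e-13), where the smaller adjusted p came with fewer pairs and a larger SE.

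**Figure D1:**
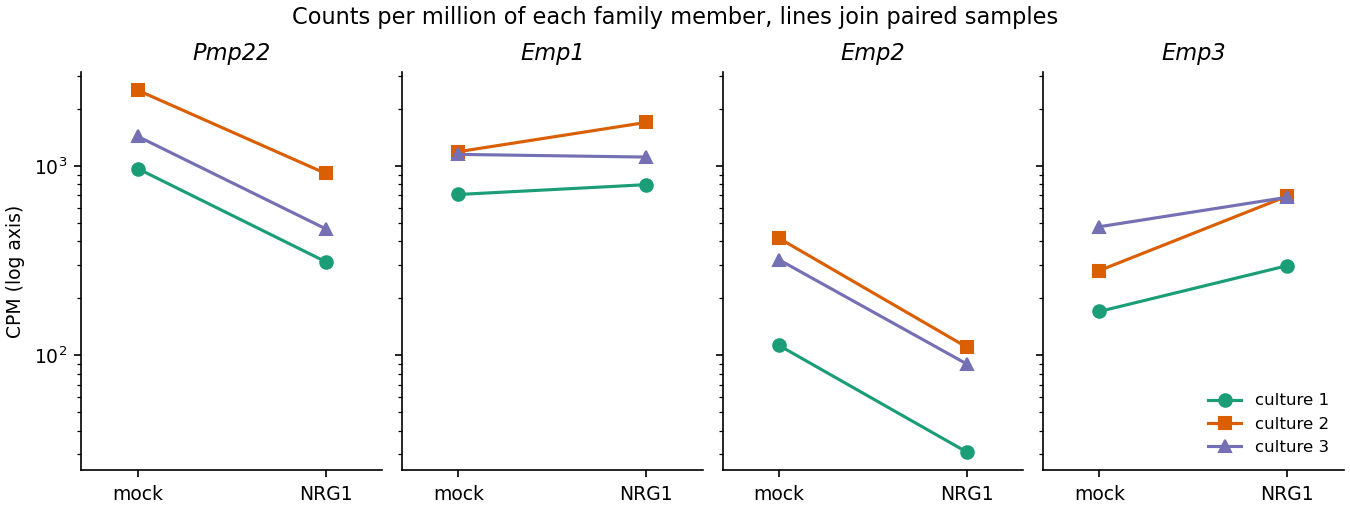
Level in CPM (log axis) of each member in the mock and NRG1 sample of cultures 1, 2 and 3, with a line joining the paired samples. The lines of Pmp22 and Emp2 run down in parallel, those of Emp3 run up, and those of Emp1 differ between cultures; heights are not comparable between genes because gene length was not taken into account.

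Emp2, whose protein is known to act on integrins and caveolae at the cell surface, had the smallest p of the family and the fourth smallest of all genes tested. Its mock samples were at 113, 416 and 320 CPM in cultures 1, 2 and 3. Its NRG1 samples were at 30.8, 110.4 and 90.0 CPM, respectively. All 3 NRG1 samples lay below all 3 mock samples, with a narrow gap between NRG1 in culture 2 and mock in culture 1. The mean went from 283 ± 155 CPM to 77.1 ± 41.4 CPM (SD, n = 3 each), a log2 fold change of -1.87 (SE 0.12, 95% interval -2.13 to -1.61, adjusted p = 5.8e-07), or 3.65-fold lower. The log2 ratios of -1.86, -1.93 and -1.80 differed little between cultures, while the level in mock differed up to 3.68-fold between them. Only 18 genes tested had a more negative fold change. Without culture 1 the log2 fold change was -1.87 (SE 0.18, adjusted p = 3e-21). When the pairing by culture was left out of the fit, neither Pmp22 (-1.54, adjusted p = 0.28) nor Emp2 (-1.88, adjusted p = 0.27) passed, and when a change beyond 2-fold was itself tested, Emp2 passed and Pmp22 did not (adjusted p = 0.013).

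Emp3, whose product is a glycoprotein studied in gliomas, moved in the opposite direction. It was counted at 171, 281 and 478 CPM in mock and at 298, 695 and 685 CPM in NRG1 of cultures 1, 2 and 3. The groups overlapped, since NRG1 in culture 1 was below mock in culture 3, but within each culture the NRG1 sample was the higher one. The log2 fold change was 0.88 (SE 0.15, 95% interval 0.57 to 1.19, adjusted p = 0.00074), or 1.84-fold higher, which passes the adjusted p but not the fold change limit. Its log2 ratios of 0.81, 1.28 and 0.54 varied more than those of Pmp22 and Emp2. Cultures 2 and 3 weighed on the size in opposite directions. Without culture 3 the log2 fold change was 1.07 (SE 0.19, adjusted p = 0.00017), past both limits, and without culture 2 it was 0.68 (adjusted p = 0.0026). Without culture 1 it was 0.91 (SE 0.19, adjusted p = 2.2e-05).

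Emp1, known as a membrane protein of epithelia and of tumour cells, had 708, 1192 and 1154 CPM in mock of cultures 1, 2 and 3. It had 798, 1703 and 1117 CPM in the NRG1 samples. The ranges overlapped, with the highest sample in the NRG1 group, and the sign differed between cultures, with log2 ratios of 0.18, 0.49 and -0.02. The mean was 1018 ± 269 CPM in mock and 1206 ± 459 CPM in NRG1 (SD, n = 3 each), with a log2 fold change of 0.22 (SE 0.14, adjusted p = 0.28). The 95% interval from -0.08 to 0.51 does not reach a change of 2-fold in either direction. Without culture 1 the log2 fold change was 0.24 (SE 0.19, adjusted p = 0.42).

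**Figure D2:**
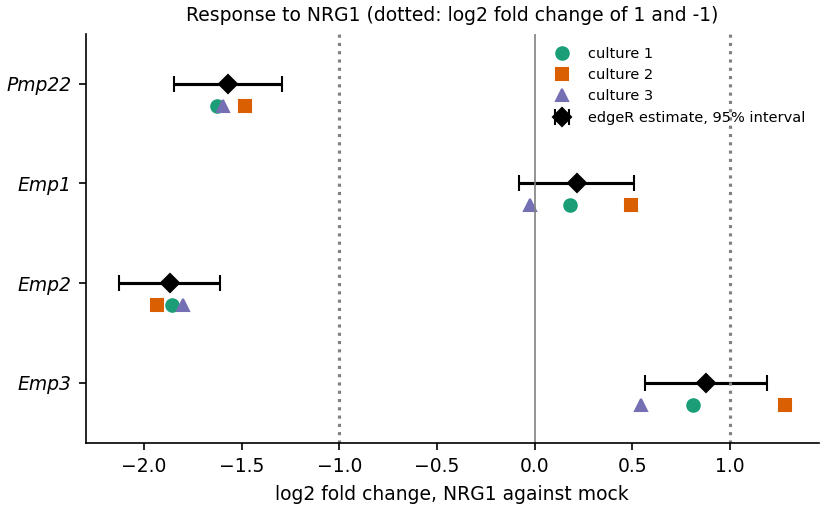
Log2 fold change of each member, NRG1 against mock, as the edgeR estimate with its 95% interval (black diamonds) and as the log2 ratio in each culture (coloured points). Dotted lines mark 1 and -1; the 3 cultures lie close together for Pmp22 and Emp2 and are more spread for Emp1 and Emp3.

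The members were then compared with each other within cultures, by the difference of their log2 ratios. With 3 pairs of samples a two-sided exact permutation test over signs cannot give a p below 0.25, and each of the 6 comparisons between members gave this smallest p of 0.25 (0.25 after Benjamini-Hochberg adjustment over the 6). The fall of Emp2 was deeper than that of Pmp22 in every culture, by 0.23, 0.45 and 0.21 on the log2 scale (mean 0.30 ± 0.13, SD, n = 3). The log2 ratio of Emp3 exceeded that of Emp1 by 0.63, 0.79 and 0.56, and that of Emp1 exceeded that of Pmp22 by 1.81, 1.97 and 1.58. The widest difference, between Emp3 and Emp2, had values for Emp2 minus Emp3 of -2.67, -3.22 and -2.35. The order Emp2, Pmp22, Emp1, Emp3 from the most negative to the most positive ratio was thus the same in all 3 cultures.

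The levels of the members also differed between cultures, in a way that NRG1 left largely in place for Pmp22 and Emp2 but less so for Emp1 and Emp3. In mock, the range over the cultures was 1.35 on the log2 CPM scale for Pmp22, 0.72 for Emp1, 1.85 for Emp2 and 1.42 for Emp3. In NRG1 it was 1.49, 1.04, 1.78 and 1.16 for the same genes. Culture 1 was the lowest for all 4 genes in both groups. Culture 2 was above culture 3 for Pmp22 by 0.85 in mock and 0.96 in NRG1, whereas for Emp3 culture 3 was above culture 2 by 0.73 in mock and the 2 cultures lay 0.01 apart in NRG1. The value of culture 3 minus culture 2 went, for Emp1, from -0.09 in mock to -0.60 in NRG1. For Emp1 and Emp3 the range over the cultures was, in both groups, larger than the response to NRG1, of 0.22 and 0.88.

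The 4 genes together summed to 1961, 4404 and 3388 CPM in mock and to 1439, 3422 and 2358 CPM in NRG1 of cultures 1, 2 and 3. The sum was lower after NRG1 in each culture, while the ranges of the groups overlapped. Within the sum, the counts shifted from Pmp22 to Emp1 and Emp3. Pmp22 took 49.4% (95% Wilson interval 48.6 to 50.2), 57.1% (56.6 to 57.7) and 42.4% (41.9 to 42.8) of the family's counts in mock. In NRG1 it took 21.7% (20.9 to 22.5), 26.7% (26.2 to 27.2) and 19.8% (19.4 to 20.2). The mean share of Emp2 went from 8.22% ± 2.13 to 3.06% ± 0.85, that of Emp3 from 9.73% ± 3.98 to 23.4% ± 4.94, and that of Emp1 from 32.4% ± 4.74 to 50.9% ± 4.16 (SD, n = 3 each). For none of the 4 genes did the shares of the groups overlap, and how often the shares in other sets of genes would do so was not computed. As the shares add up to the whole, those of Emp1 and Emp3 can rise without any change of these genes. In CPM the groups overlapped for both Emp1 and Emp3. The intervals cover counting error only, and shares of counts weigh a longer transcript more heavily than a shorter one.

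**Figure D3:**
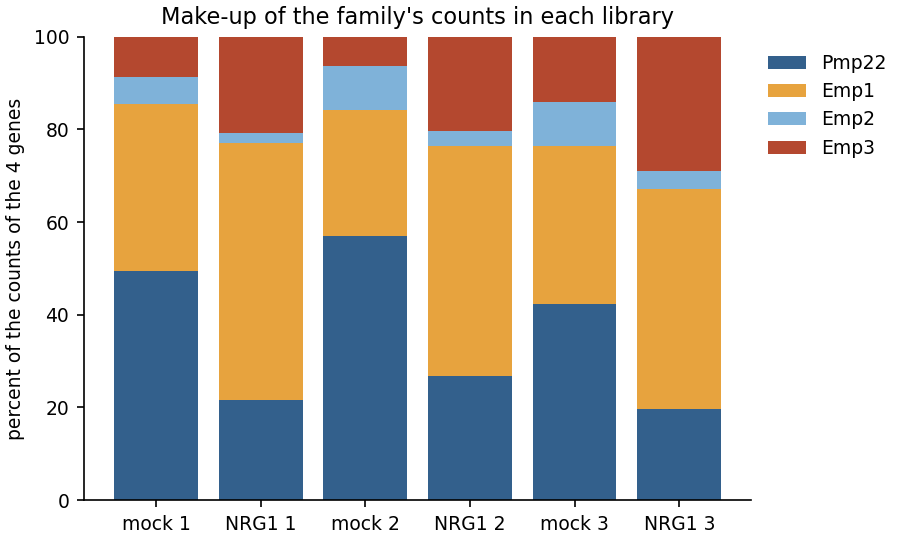
Percent of the counts of the 4 genes that fell on each gene, for the mock and NRG1 library of cultures 1, 2 and 3. The Pmp22 part shrinks from between 42.4% and 57.1% in mock to between 19.8% and 26.7% in NRG1, and the Emp3 part grows in each culture.

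To place the members among all genes, the level of each gene in the 6 samples was expressed as log2 CPM minus its own mean, and profiles were compared by the root mean square difference over the 6 samples, for which 0 is identity. The likeness takes in the differences between cultures as well as the response to NRG1. A gene picked as most like a member therefore shares much of its response by the way it was picked. The fold changes of such genes describe them and are no separate evidence. Among the genes most like Pmp22 were Prss12, which codes for the serine protease neurotrypsin, at 0.14, and Mal, which codes for a lipid raft protein of myelin, at 0.20. Both were down-regulated, with log2 fold changes of -1.33 (SE 0.12) and -1.72 (SE 0.20). Nearest to Emp2 were Sema4f, a semaphorin, at 0.16, Fos, a subunit of AP-1, at 0.26, and Dnm3, a dynamin, at 0.27. These were down-regulated too, by log2 fold changes of -1.69 (SE 0.17), -1.61 (SE 0.12) and -2.20 (SE 0.15).

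Emp2 was itself close to Pmp22, at 0.42, as the 39th of the 9739 genes in order of likeness to Pmp22, while Pmp22 was the 21st in order of likeness to Emp2. Emp1 and Emp3 were 0.48 apart, but Emp3 was only the 5013th in order of likeness to Emp1, and Emp1 the 868th in likeness to Emp3. Pmp22 and Emp3 were 1.34 apart. The profile of Emp3 was most like those of Calca, the calcitonin gene-related peptide precursor, at 0.09, Ppa1, a pyrophosphatase, at 0.09, and Rasl2-9, a Ran-like GTPase gene, at 0.13. Calca was a low gene, between 1.56 and 7.63 CPM, and did not pass, with a log2 fold change of 0.94 (SE 0.26, adjusted p = 0.018). Ppa1 with 0.85 (SE 0.14) and Rasl2-9 with 0.94 (SE 0.15) passed the adjusted p but not the fold change limit. The genes most like Emp1 were Bloc1s2, a subunit of a complex of lysosome-related organelles, at 0.06, Sqle, an enzyme of cholesterol synthesis, at 0.08, and Dnajc22 at 0.08, and 0 of these 3 had an adjusted p of at most 0.01.

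**Figure D4:**
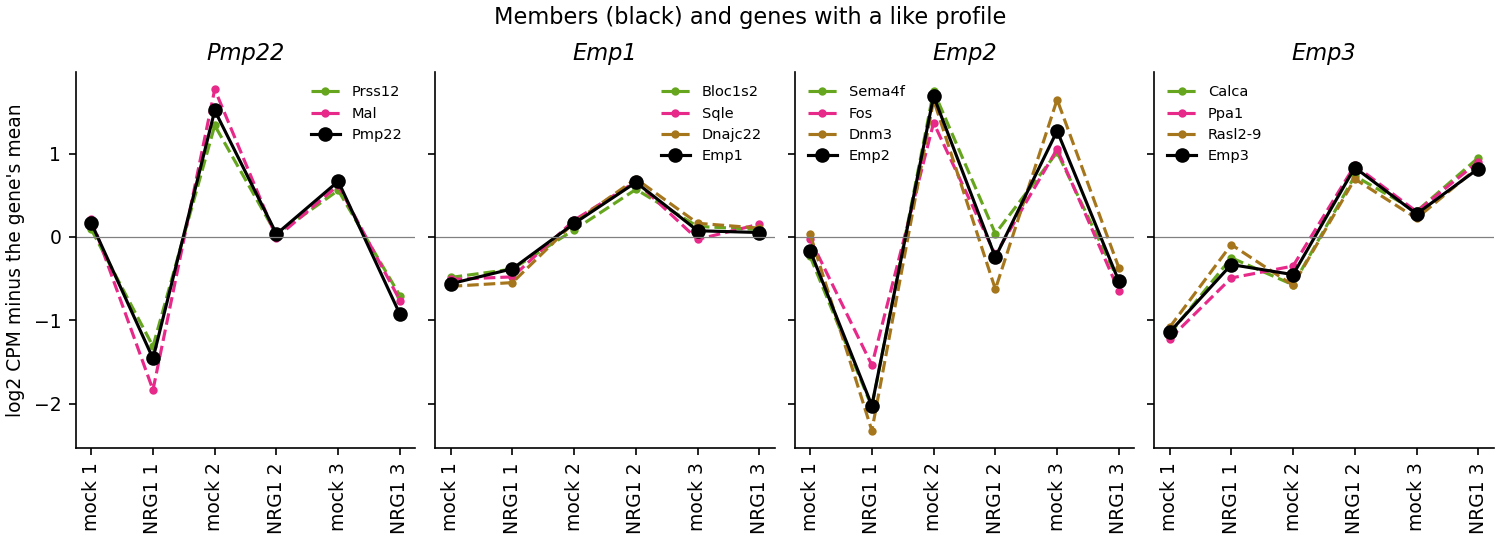
Log2 CPM minus the mean of the gene over the 6 libraries, for each member (black) and the genes named in the text for the smallest root mean square difference from it (dashed). Lines only guide the eye between libraries; the profiles of Pmp22 and Emp2 drop from mock to NRG1 in each culture, that of Emp3 rises, and that of Emp1 mainly follows the cultures.

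Related genes were taken from lists of relatives, partners and regulators of the family. These lists were chosen with earlier results of these data known, so that counts of regulated genes in them are a description only. Over all genes tested 1.91% were down-regulated and 1.56% up-regulated. Among 18 superfamily genes outside the claudins, 16 were in the files, 9 of them with 0 counts in all libraries. Only Tmem47, which codes for a junction protein, and Cldnd1, which codes for a claudin domain protein, had enough counts to be tested. Neither passed at an adjusted p of 0.01, the log2 fold changes being -0.59 (SE 0.15, adjusted p = 0.011) and -0.40 (SE 0.12, adjusted p = 0.025). The mock level of Tmem47 was 149 CPM in culture 1 and 11.4 and 5.46 CPM in cultures 2 and 3, so that culture 1 was the highest and not, as for the 4 members, the lowest. Of 23 claudins 22 were in the files and 3 were tested, of which Cldn19, the claudin of Schwann cell tight junctions, was down-regulated by -1.19 (SE 0.15, adjusted p = 8.5e-05). Cldn12 and Cldn14 did not pass, with 0.04 (adjusted p = 0.85) and -0.61 (adjusted p = 0.21). Without culture 1 Cldn14 was down-regulated as well, with -1.06 (SE 0.29, adjusted p = 0.0028).

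Of 11 other myelin membrane proteins, most of which also have 4 membrane-spanning segments, 10 were tested. The share down-regulated over all genes tested was 1.91%. The down-regulated ones were 3, namely Mal, Pllp, which codes for the myelin protein plasmolipin, with -1.54 (SE 0.26, adjusted p = 0.00087) and Mag, the adhesion protein of non-compact myelin, with -1.17 (SE 0.17, adjusted p = 0.00023). Pllp was a low gene, at 3.10 CPM or less in NRG1 against 4.54 CPM or more in mock, and without culture 3 it had an adjusted p of 0.03. Cd82, a tetraspanin, rose by 0.58 (SE 0.13, adjusted p = 0.0057), but without culture 1 it had 0.50 and did not pass (adjusted p = 0.039). The median log2 fold change of the 10 genes was -0.25, against -0.03 over all genes tested.

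Of 12 transcription regulators linked to Pmp22, 11 were tested and 1 was down-regulated, where 1.91% of all genes tested were. This was Egr2, the zinc finger factor required for myelination, which went from 10.9, 22.9 and 21.8 CPM in mock to 4.77, 7.91 and 4.52 CPM in NRG1 of cultures 1, 2 and 3, a log2 fold change of -1.71 (SE 0.21, adjusted p = 8.5e-05). No NRG1 sample reached the lowest mock sample. Sox10, the factor that maintains Schwann cell identity, had a log2 fold change of 0.11 (SE 0.13, adjusted p = 0.58) with 385 and 462 CPM in mock and NRG1 of culture 1 and 1069 to 1259 CPM in the other libraries. Of the TEAD cofactor genes, Yap1 had 0.35 (adjusted p = 0.055) and Wwtr1 0.47 (adjusted p = 0.018), neither of which passed. The median of the 11 genes was -0.04.

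Among 11 genes for proteins that bind or transport family members, 10 were tested and 2 were down-regulated, where 1.91% of all genes tested were. Itgb4, the integrin β4 subunit that binds the basal lamina, fell from 60.2, 151.9 and 152.3 CPM in mock to 21.7, 52.7 and 60.2 CPM in NRG1 of cultures 1, 2 and 3, by a log2 fold change of -1.44 (SE 0.12, adjusted p = 4.6e-06). P2rx7, which codes for an ATP-gated channel that binds PMP22 and the EMP proteins, had -1.23 (SE 0.16, adjusted p = 1e-04). The α6 partner of integrin β4, Itga6, had -0.27 (SE 0.13, adjusted p = 0.15). The other genes of the list, among them the chaperone gene Canx and the Golgi retrieval gene Rer1, had log2 fold changes between -0.12 and 0.35 and did not pass. The highest was that of Cav1, the caveolin gene, whose log2 ratios were -0.32, 0.72 and 0.68 in cultures 1, 2 and 3 and which without culture 1 had 0.71 (SE 0.18, adjusted p = 0.0012), past the adjusted p but not the fold change limit. The median of the 10 genes was -0.05.

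Of 5 further growth arrest-specific genes, 4 were tested and 0 were regulated by both limits. Gas6, which codes for a ligand of the TAM receptors, passed the adjusted p alone, with -0.91 (SE 0.19, adjusted p = 0.004). Its level stayed close in culture 1, at 142 CPM in mock and 129.5 CPM in NRG1, and was lower in the NRG1 samples of cultures 2 and 3, at 43.7 and 59.5 CPM against 120 and 135 CPM in mock. Without culture 1 the log2 fold change of Gas6 was -1.30 (SE 0.18, adjusted p = 8.4e-11), past both limits. The 7 regulated genes of these lists all passed both limits without culture 1 as well, with log2 fold changes between -1.90 and -1.09.

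**Figure D5:**
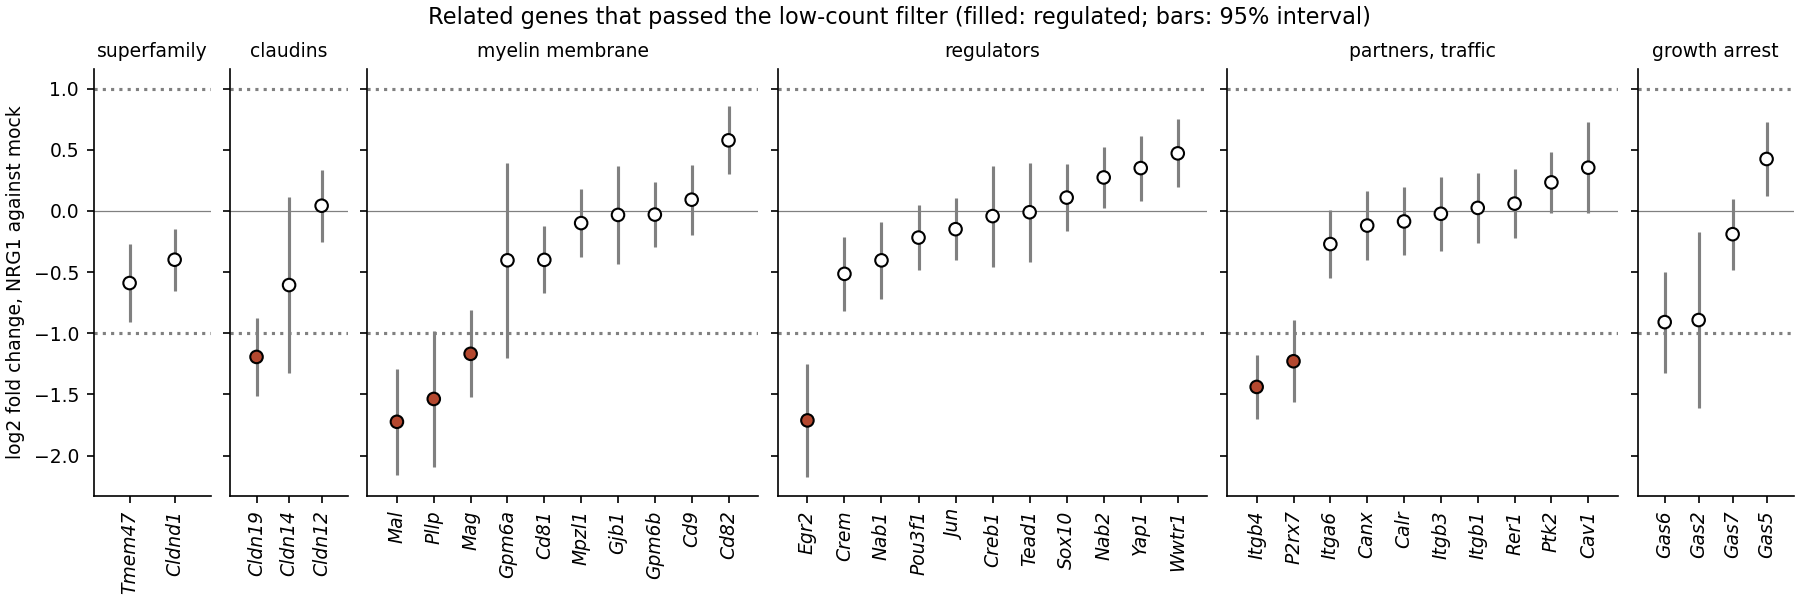
Log2 fold change, NRG1 against mock, with 95% intervals for the reported genes of 6 related lists that passed the low-count filter. Filled points are regulated genes (adjusted p of at most 0.01 and beyond the dotted lines at 1 and -1); the 7 filled points, Cldn19, Mal, Pllp, Mag, Egr2, Itgb4 and P2rx7, are all below -1.

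The nearest tested neighbours of the falling genes on the chromosome were looked up after the values had been seen. Of these 4 genes 0 passed as lower at an adjusted p of 0.01, where 5.51% of all genes tested did. With so low a share, 4 genes are too few to draw anything from the 0. Genes that were not tested were passed over, so that these need not be adjacent genes. Around Pmp22 they were Tvp23b, with a log2 fold change of -0.27 (SE 0.13, adjusted p = 0.14), and Elac2, which rose by 0.73 (SE 0.13, adjusted p = 0.0012). Around Emp2 they were Nubp1, with 0.04 (SE 0.14, adjusted p = 0.87), and Usp7, with 0.25 (SE 0.13, adjusted p = 0.18). The RefSeq table holds 1 gene that overlaps Pmp22, LOC134480805, for which the files have no count, and 0 that overlap the EMP genes.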

How the data were processed

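Polyadenylated RNA of 6 samples was read on an Illumina NextSeq instrument. The authors aligned reads to rn5 with TopHat 2.0.10 and deposited raw htseq counts per RefSeq gene symbol; the strand setting is not given in the sources used here. Summary lines were set aside, and 47.0% to 49.9% of alignments per file were assigned to a gene. CPM are counts per 1000000 counts on genes. Genes were filtered with filterByExpr (minimum count 10), normalised with TMM and tested with the quasi-likelihood test of edgeR 4.0.16 (R 4.3.3), blocking on the culture, since the study also analysed its samples as pairs. P-values were adjusted over all 9740 genes by the Benjamini-Hochberg method. Log2 ratios and profiles use TMM log2 CPM (prior count 2). A standard error is the log2 fold change over the square root of F.

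Mock and NRG1 samples of 1 number come from 1 cell preparation, and their deviations from group means correlated across genes with r of 0.91, 0.67 and 0.81 (paired) against -0.80 to 0.51 otherwise. No 2 libraries agreed within sampling noise. Named are the members, the regulated genes of each list (otherwise up to 3 with the highest CPM) and the 3 genes most like each member; further list genes were chosen after their values were seen. Members and lists were chosen with earlier results of these data known. Listed genes were matched by symbol, and a few are not reported here and were left out of list counts, sums, medians and plots. Gene lengths were not used. DESeq2 1.42.0 and other settings were alternatives. The scripts were tested on simulated data.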

Additional observations from a re-analysis of the deposited data

How the results depend on the processing

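The direction of each of the 4 members was the same under all 12 alternatives. Robust empirical Bayes, an adjusted p limit of 0.05 and testing for a change beyond 2-fold kept the main estimates by construction. Those settings could not alter a direction and add no evidence for it. Without the replicate block, which treats the paired samples as unrelated, the log2 fold changes of Pmp22 and Emp2 were -1.54 and -1.88 but no longer passed (adjusted p = 0.28 and 0.27), Emp3 had 0.86 (adjusted p = 0.47), and 0 genes were regulated in either direction by edgeR, with 713 higher and 621 lower at an unadjusted p under 0.05. With the fold change threshold inside the test, Emp2 passed and Pmp22, at -1.57, had an adjusted p of 0.013, with 13 genes up and 9 down. Leaving out each culture in turn gave -1.61 to -1.53 for Pmp22, -1.88 to -1.83 for Emp2, 0.08 to 0.36 for Emp1 and 0.68 to 1.07 for Emp3, and from 133 to 202 genes up and 122 to 299 down, against 152 and 186. DESeq2 with the block gave 139 up and 123 down unshrunken and 101 up and 88 down shrunken. Of the 18 other genes tracked, chosen after the data were seen, 12 of them regulated, Dnajc22 changed sign, with -0.019 without culture 2 and up to 0.35 without culture 3. Mag with shrunken fold changes and Pllp without culture 3 no longer passed, while Ppa1 and Rasl2-9 passed without culture 3, and 12 were lost without the block and 10 with the threshold inside the test. Most of the superfamily genes and claudins had too few counts to test, and whether depth or absence of expression accounts for this was not tested.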
